A study of Mus musculus with 6 samples.

Results

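The respiratory chain of mitochondria is encoded by 2 genomes, and the transcripts of both were measured in cultured cardiac fibroblasts (CFs) of WT and CharmeKO mice. The members were chosen by symbol alone: the mitochondrial-genome genes beginning with mt-Nd, mt-Co, mt-Cytb or mt-Atp, and the nuclear genes beginning with Ndufa, Ndufb, Ndufc, Ndufs, Ndufv, Uqcr, Cox4 to Cox8 or Atp5, together with *Sdha*, *Sdhb*, *Sdhc* and *Sdhd*. They came to 104 of the 19446 genes of the table, 12 from the mitochondrial genome and 92 from the nucleus; 6 further rows whose symbols mark pseudogenes were left out. The nuclear members comprised 37 genes of complex I, 4 of complex II, 8 of complex III, 18 of complex IV (with *Ndufa4* and *Ndufa4l2* counted there), 17 of complex V and 8 complex I assembly factors of the Ndufaf family. *mt-Atp8* and *Cox8b* were not analysed here.

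RNA-seq libraries were made from poly(A) RNA of 3 WT and 3 CharmeKO cultures. CharmeKO mice carry a polyadenylation signal inserted at *Charme*, a long non-coding RNA gene, all mice were on the C57BL/6J background, and the labels give their age as 5 weeks. All CFs grew out of explants of littermates' atrial tissue on fibronectin in IMDM with 20% FBS, and no other agent was given. The labels number the libraries 1 to 3 in each genotype without saying what equal numbers share, and do not say whether the libraries came from separate animals, so p-values measure the spread between these libraries, which may be partly technical.

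The 5 complexes of oxidative phosphorylation sit in the inner mitochondrial membrane. Complexes I to IV pass electrons from NADH and succinate to oxygen and, except for complex II, pump protons, and complex V uses the proton gradient to make ATP. The mitochondrial genome encodes core subunits of complexes I, III, IV and V, while complex II and the remaining subunits come from the nucleus. In cardiac muscle, the chain supplies most of the ATP, and several complex IV subunits exist there as a muscle isoform beside a ubiquitous one.

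The libraries held between 38330019 and 46797446 reads in genes. The only row without an Ensembl identifier, taken to be the *Charme* entry added by the authors, had 5, 15 and 11 reads in the 3 WT libraries and 0, 6 and 3 reads in those of CharmeKO. These groups overlap and too few reads were present to check the genotypes. The 0 of CharmeKO 1 allows a level of up to 0.0671 CPM (reads scaled to the library's total in genes), for counting error only. Fibroblast markers (*Col1a1*, *Dcn*, *Pdgfra* and 7 others, all with reads) summed to between 35580 and 71220 CPM per library, against 3.22 to 18.5 CPM for the 3 of 10 cardiomyocyte markers analysed here and 1.69 to 8.86 CPM for 6 of 8 endothelial markers.

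The 12 mitochondrial-genome members fell into a well-measured and a nearly unread set. *mt-Co2* (23 to 63 reads per library), *mt-Co3* (11 to 36), *mt-Atp6* (9 to 30), *mt-Nd3* (1 to 8) and *mt-Nd4l* (2 to 6) lie next to one another, whereas each of the other 7 had over 1000 reads in every library. The nearly unread genes have near-identical copies on chromosome 1, annotated as unprocessed pseudogenes on the minus strand between positions 24611535 and 24616197 of GRCm38. The first 60 bases of the shared run are shown for *mt-Co2* (chrM:7013-7072, plus strand) with its copy *Gm28661* (chr1:24615506-24615565, minus strand) and for *mt-Atp6* (chrM:7927-7986, plus strand) with its copy *Gm10925* (chr1:24614592-24614651, minus strand), because sequence alone does not tell the members of each pair apart.
mt-Co2: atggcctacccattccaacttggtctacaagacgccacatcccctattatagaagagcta
Gm28661: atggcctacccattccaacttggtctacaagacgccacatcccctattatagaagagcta
mt-Atp6: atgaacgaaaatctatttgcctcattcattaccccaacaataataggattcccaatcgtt
Gm10925: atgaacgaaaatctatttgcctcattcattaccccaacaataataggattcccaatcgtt

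Positions are counted from 1 at the first base of each mitochondrial gene. *mt-Co2* was identical to *Gm28661* over an unbroken run of 681 of its 684 bases, *mt-Co3* to *Gm28437* over 783 of 784, *mt-Atp6* to *Gm10925* over 678 of 681, *mt-Nd4l* to *Gm10222* over 294 of 297, and *mt-Nd3* to *Gm28438* over 342 of 348. The copied stretch begins inside *mt-Co1*, whose last 479 of 1545 bases (from position 1067) match *Gm29216*, and ends inside *mt-Nd4*, whose first 876 of 1378 bases match *Gm28439*. The 2 edges are printed here with the shared run in capitals (mt-Co1 at chrM:6344-6443 and mt-Nd4 at chrM:10993-11092, plus strand), since they mark where the match to the chromosome 1 copy begins and ends.
mt-Co1: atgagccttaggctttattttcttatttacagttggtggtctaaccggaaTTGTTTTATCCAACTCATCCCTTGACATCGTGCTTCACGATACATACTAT
mt-Nd4: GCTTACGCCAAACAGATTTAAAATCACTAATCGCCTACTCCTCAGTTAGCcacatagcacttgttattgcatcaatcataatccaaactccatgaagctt

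The windows of *mt-Co1* matched 2 other genes, *Gm29216* among them, so they were not all unique outside this run. Of the 75-base windows of *mt-Co2*, *mt-Co3*, *mt-Atp6*, *mt-Nd3* and *mt-Nd4l*, 97.8% to 99.9% also occurred in another annotated transcript, against 61.5% for *mt-Nd4*, 39.8% for *mt-Co1*, 5.71% for *mt-Nd2*, 1.66% for *mt-Nd5* and 0% for *mt-Nd1*, *mt-Nd6* and *mt-Cytb*. *mt-Atp8*, which overlaps *mt-Atp6* and whose reads were not analysed here, also had 0% of such windows. Only annotated transcripts were searched, so a copy without annotation would not be counted. The authors counted with STAR, whose gene counter leaves out reads that map to more than 1 place. The copies themselves held 55 (*Gm10222*) to 364 (*Gm28661*) reads over the 6 libraries. The reads lost in this way cannot be recovered from the table, so the values of these 5 genes and the sums below give no level of their transcripts, and the part of shared sequence in the low counts was not tested.

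**Figure D1:**
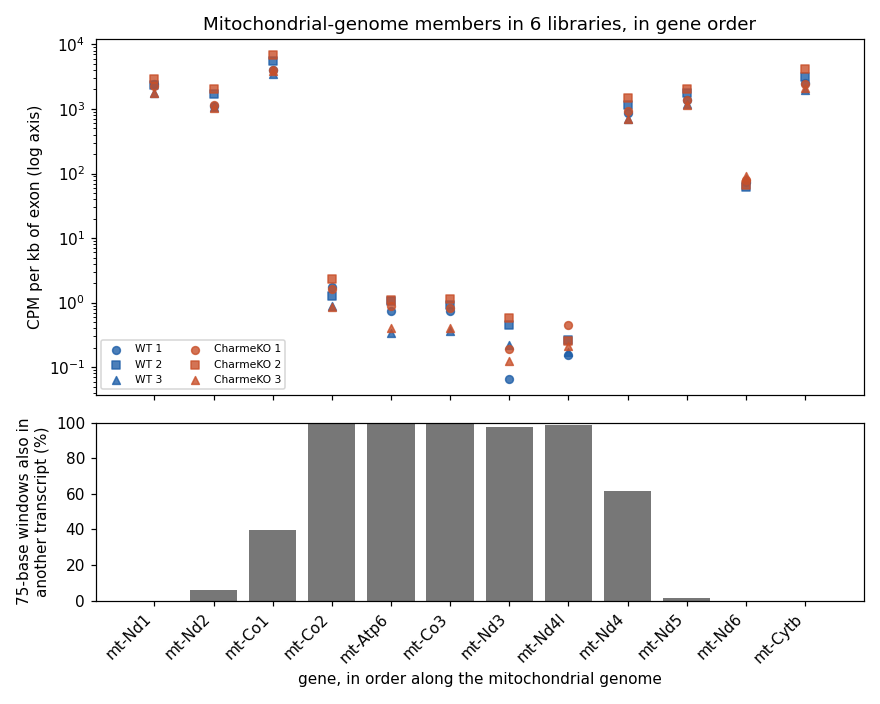
Level of the 12 mitochondrial-genome members in 6 libraries, in CPM per kb of exon on a log axis (upper panel; blue WT, orange CharmeKO, circles, squares and triangles for libraries 1, 2 and 3), above the percentage of each gene's 75-base windows that also occur in another annotated transcript (lower panel). The 5 adjacent genes with 97.8% to 99.9% of windows shared lie between 0.253 and 1.45 CPM per kb on average, and the other 7 between 75.4 and 4642.

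Per kb of exon, *mt-Co1*, the catalytic subunit of complex IV, had 4642 CPM per kb (mean over 6 libraries). This was the highest level among the members other than the nearly unread mitochondrial-genome genes, whose values give no level of their transcripts. *mt-Cytb*, the mitochondrial-genome subunit of complex III, followed at 2733 CPM per kb, and the complex I subunits *mt-Nd1*, *mt-Nd5*, *mt-Nd2* and *mt-Nd4* at 2261, 1481, 1353 and 964 CPM per kb. Both *mt-Co1* and *mt-Nd4* share part of their 75-base windows with other transcripts (39.8% and 61.5%), yet were divided by their full length. Their levels may thus be understated, and the place of *mt-Nd4* in this order is not settled. *mt-Nd6*, the only one of the 7 encoded on the light strand, stood at 75.4 CPM per kb, as read in libraries made from poly(A) RNA. Each of the other 6 exceeded every nuclear member, whose median was 24.1 CPM per kb. The most abundant nuclear members per kb were *Cox8a* (217 CPM per kb), *Cox6a1* (206), *Atp5b* (174), *Atp5a1* (140) and *Cox4i1* (119), subunits of complexes IV and V. Apart from the pseudogene *Ndufb4c* (0.226 CPM per kb), *Ndufb2* was the lowest of the nuclear complex I genes, with 52 to 111 reads per library and 0.336 CPM per kb (chosen after its values were seen), a value set over 5628 bases of annotated exon.

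Between genotypes, no mitochondrial-genome member passed the test. The number of the library marked the larger split: *mt-Co1* had normalised read counts of 261650, 353597 and 226404 in WT 1, 2 and 3 and of 268583, 413323 and 247268 in CharmeKO 1, 2 and 3. Libraries 2 were the highest and libraries 3 the lowest in both genotypes, and the groups overlap. The log2 fold change (CharmeKO against WT, on the log2(value + 1) scale throughout) was 0.13 with an SE of 0.49. Its 95% interval ran from -1.05 to 1.31 (limma, adjusted p = 0.9999). SEs and intervals here and below come from fits without the library number as a block, so they include the spread between numbers. Within libraries of equal number, *mt-Co1* differed by 0.04, 0.23 and 0.13 log2 units for numbers 1, 2 and 3. With the block, its adjusted p was 0.929 (limma). *mt-Cytb* followed the same order of libraries. It had 121267, 148478 and 94596 normalised reads in WT and 121674, 188983 and 97189 in CharmeKO (log2 fold change 0.13, SE 0.40). *mt-Nd4* had 50437, 65108 and 40713 normalised reads in WT and 54359, 78864 and 38597 in CharmeKO (0.10, SE 0.36). In both genes the libraries 2 were again highest, the libraries 3 lowest, and the genotypes overlapped. *mt-Nd1*, *mt-Nd2* and *mt-Nd5* had log2 fold changes of 0.03 (SE 0.32), 0.05 (SE 0.35) and 0.01 (SE 0.36). Of the 3 least-read genes tested, *mt-Co2* gave 0.20 (SE 0.53), *mt-Co3* 0.17 (SE 0.60) and *mt-Atp6* 0.14 (SE 0.63), while *mt-Nd3* and *mt-Nd4l* fell below the filter of 10 reads in 2 libraries.

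*mt-Nd6* ran the other way across library numbers. It had 1612, 1298 and 1797 normalised reads in WT 1, 2 and 3 and 1778, 1345 and 1909 in CharmeKO 1, 2 and 3, so that it was lowest in the libraries 2, where the other 6 well-measured genes summed highest. CharmeKO was above WT in each of the 3 pairs of equal number, but the groups overlap (log2 fold change 0.09, SE 0.21, 95% interval -0.41 to 0.60). The log2 ratio of *mt-Nd6* reads to the summed reads of the other 6 was -8.74, -9.38 and -8.31 in WT and -8.61, -9.56 and -8.25 in CharmeKO, a difference of 0.0018 between the genotype means. The 2 mitochondrial ribosomal RNAs, which are no members, took 0.0714% to 0.163% of reads in WT and 0.0706% to 0.0883% in CharmeKO. Their log2 ratio to the same 6 genes was -3.70 in WT 2 and -4.96 in CharmeKO 2, and between -4.34 and -4.07 in the other 4 libraries. In libraries made from poly(A) RNA, these counts do not give the rRNA content. How fully *mt-Nd6* and the other mitochondrial mRNAs were captured was not tested.

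Split by source, the library number accounted for 93.2% of the variance of the 10 tested mitochondrial-genome members, the genotype for 2.29% and the remainder for 4.53%. The nearly unread *mt-Co2*, *mt-Co3* and *mt-Atp6* are among these 10. For the 90 tested nuclear members, the shares were 67.0%, 14.6% and 18.5%, and for all 15948 tested genes 67.7%, 10.6% and 21.7%. These are shares of the summed squares. Library number has more levels than genotype, so it takes a larger share even where neither has an effect. What equal numbers have in common is not given, and its part in these values was not tested.

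Compared within each library, the balance of the 2 genomes differed more between library numbers than between genotypes. Mitochondrial-genome members took 1.62%, 2.12% and 1.36% of the reads of WT 1, 2 and 3 and 1.63%, 2.60% and 1.43% of those of CharmeKO 1, 2 and 3. Nuclear members took 0.600%, 0.460% and 0.519% in WT and 0.653%, 0.596% and 0.540% in CharmeKO, higher in CharmeKO in each of the 3 pairs with overlapping groups (0.526% ± 0.0707 and 0.596% ± 0.0569, SD, n = 3). The ratio of mitochondrial-genome to nuclear reads was 4.61 and 4.37 in the libraries 2 and between 2.49 and 2.70 in the other 4. On the log2 scale the ratio averaged 1.68 ± 0.46 in WT and 1.62 ± 0.44 in CharmeKO (SD, n = 3), a difference of -0.06, with pair differences of -0.12, -0.08 and 0.02. Leaving out 1 library at a time moved this difference between -0.31 (without CharmeKO 2) and 0.21 (without WT 2), and it was also above 0 without CharmeKO 1 (0.09) and without CharmeKO 3 (0.04).

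**Figure D2:**
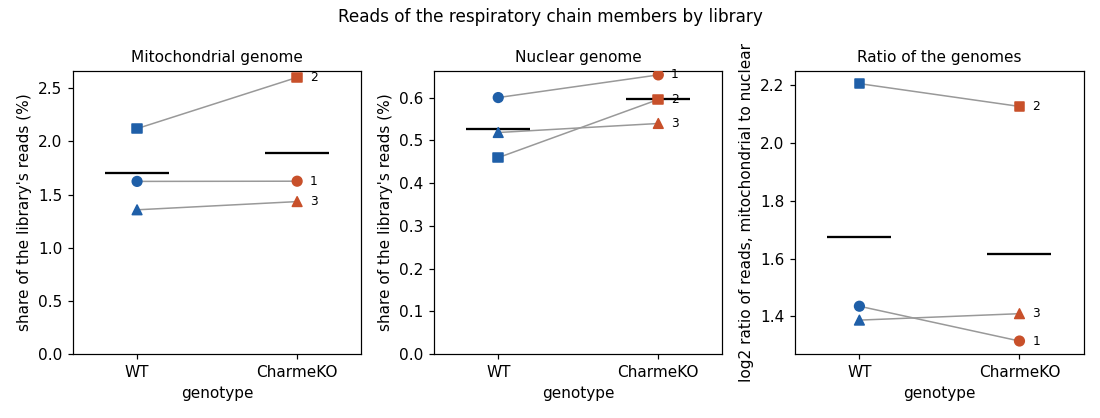
Share of each library's reads in mitochondrial-genome members (left) and in nuclear members (middle), in percent, and the log2 ratio of the first to the second (right, axis not starting at 0), for WT (blue) and CharmeKO (orange). Lines join libraries of equal number, given beside the points, and black bars are group means. The libraries 2 stand apart in the ratio at 2.21 and 2.13, against 1.31 to 1.44 in the other 4.

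None of the 90 nuclear members tested passed the test either, yet most had a higher value in CharmeKO. The remaining 2 of the 92, *Ndufb4c* and *Cox6c2*, are annotated as processed pseudogenes and had 22 and 10 reads over the 6 libraries, too few to be tested. Limma called 0 of the 100 tested members and 0 of all 15948 genes (0%) at an adjusted p under 0.05, and edgeR called none. At an unadjusted p under 0.05, limma gave 143 genes in all, 0.897% of those tested, of which none was a member, and edgeR gave 158, again without a member. DESeq2 called 8 genes (0.0502%), none a member. With the replicate number as a block, limma again called none, and 3 nuclear members were among the 5.37% of genes at an unadjusted p under 0.05, while DESeq2 called 0.401% of genes and no member. Differences of 1 log2 unit or more, in either direction, were seen in 2 members (*Ndufa4l2* and *Cox7a1*) and in 5.04% of all genes. Of these 2, *Cox7a1* passed the read filter only through WT libraries. Of the nuclear members, 79 of 90 had a log2 fold change above 0, against 50.4% of all genes, and their median was 0.18, against 0.0022 for all genes. All 10 mitochondrial-genome members tested were above 0 as well, with a median of 0.12. For the 7 with over 1000 reads in every library, the median was 0.09. The members share their libraries, so these counts are not independent observations.

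Within pairs of equal number, 30 of 90 nuclear and 4 of 10 mitochondrial-genome members (3 of the 7 well-measured) were higher in CharmeKO in all 3, against 16.4% of all genes. *Cox7a1* and *Ndufaf2* were lower in all 3 pairs (14% of all genes), but *Cox7a1* passed the read filter only through WT libraries, which favours that direction. *Cox8a* and *Ndufaf1* had non-overlapping groups with CharmeKO higher (2.14% of all genes), and no member had non-overlapping groups with CharmeKO lower (1.98%). The median difference of the nuclear members for pairs 1, 2 and 3 was 0.16, 0.38 and -0.02. That of the 10 mitochondrial-genome members was 0.05, 0.23 and -0.01, and that of the 7 well-measured ones 0.04, 0.23 and -0.05. The nuclear direction thus rested on pairs 1 and 2. The summed macrophage and blood cell markers (8 of 8 with reads) had the same signs by pair, at 189, 101 and 38.8 CPM in WT 1, 2 and 3 and 404, 301 and 17.7 CPM in CharmeKO 1, 2 and 3. So did the summed mesothelial and epicardial markers (6 of 7 with reads), at 201, 37.8 and 58 CPM in WT and 242, 91.2 and 21.3 CPM in CharmeKO. The part of either list in this result was not tested. Without WT 2, 61 of the 90 nuclear members were above 0, with a median of 0.07, and without CharmeKO 1, 64 were, also with a median of 0.07. Without WT 3 or without CharmeKO 2, 1 of the 10 mitochondrial-genome members was above 0, and the median turned to -0.07 and -0.11.

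**Figure D3:**
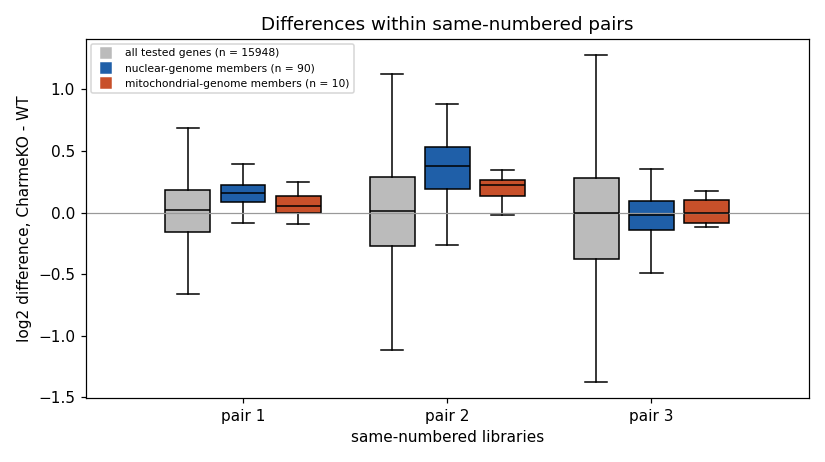
Log2 difference of CharmeKO from WT within each pair of equally numbered libraries for all tested genes (grey), nuclear members (blue) and mitochondrial-genome members (orange). Boxes span the quartiles with the median as a line, whiskers reach 1.5 times the interquartile range, and values beyond are not drawn. The nuclear median lies at 0.16, 0.38 and -0.02 in pairs 1, 2 and 3.

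By complex, the nuclear subunits of complex I had the highest median log2 fold change at 0.21, with 36 of 36 tested genes above 0. Complex III (8 of 8) followed at 0.18, complex IV (11 of 17) at 0.16, complex V (16 of 17) at 0.15, complex II (4 of 4) at 0.09 and the assembly factors (4 of 8) at 0.04. No difference between complexes was tested.

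**Figure D4:**
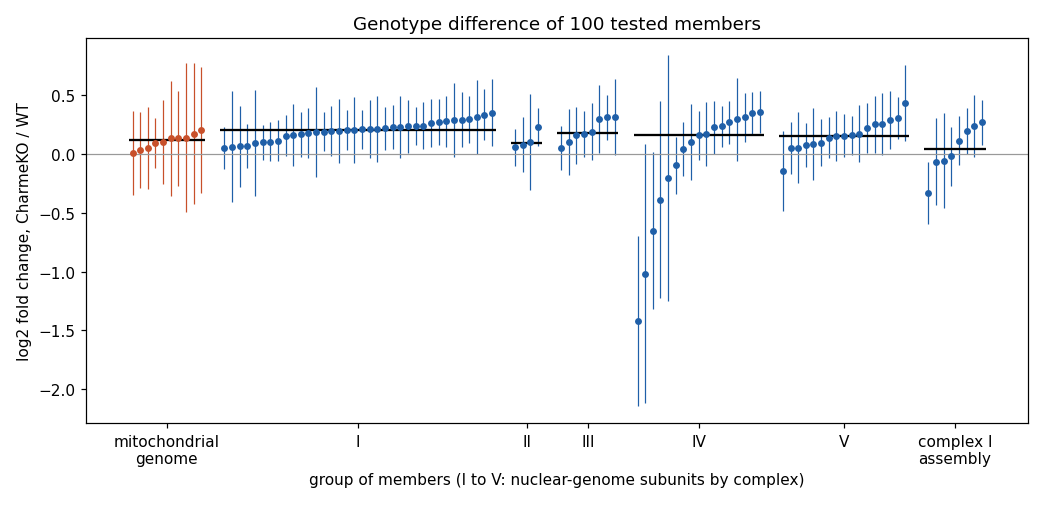
Log2 fold change (CharmeKO against WT) of the 100 tested members, each as a point with its SE, ordered by value within the mitochondrial genome (orange) and within nuclear complexes I to V and the complex I assembly factors (blue). Black bars are medians. All 36 nuclear complex I points lie above 0, and the lowest points, in complex IV, belong to *Cox7a1* at -1.42 and *Ndufa4l2* at -1.02. *Cox7a1* passed the read filter only through WT libraries.

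Among complex I subunits, *Ndufa5*, an accessory subunit, had 635, 467 and 530 normalised reads in WT and 754, 724 and 576 in CharmeKO. It was higher in CharmeKO in all pairs, but CharmeKO 3 lay below WT 1 (log2 fold change 0.33, SE 0.22). *Ndufs7*, a core subunit that holds an iron-sulfur cluster, had 1370, 1211 and 1232 in WT and 1520, 1653 and 1335 in CharmeKO. Only CharmeKO 3 fell within the WT range (0.24, SE 0.16). The core subunit *Ndufs1* gave 0.05 (SE 0.18, 95% interval -0.38 to 0.48).

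Complex II, succinate dehydrogenase, is wholly nuclear-encoded. Its flavoprotein *Sdha* had 7425, 6620 and 6831 normalised reads in WT and 7617, 6397 and 7702 in CharmeKO, with overlapping groups (0.05, SE 0.16, 95% interval -0.32 to 0.43). The iron-sulfur subunit *Sdhb* varied more, from 1085 in WT 2 to 2957 in CharmeKO 1, and gave 0.10 (SE 0.41). The membrane anchors *Sdhc* and *Sdhd* gave 0.23 (SE 0.16) and 0.08 (SE 0.23).

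Of complex III, *Uqcr11*, a small accessory subunit, had 1724, 1268 and 1514 normalised reads in WT and 2125, 1818 and 1630 in CharmeKO. It was higher in CharmeKO in each pair, and CharmeKO 3 lay below WT 1 (0.31, SE 0.19). The small subunits *Uqcrq* and *Uqcr10* gave 0.31 (SE 0.32) and 0.30 (SE 0.29), and the core protein *Uqcrc1* 0.16 (SE 0.20).

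In complex V, *Atp5b*, the catalytic beta subunit and the most-read nuclear member, had 36242, 21444 and 32963 normalised reads in WT and 37986, 24084 and 31215 in CharmeKO. The libraries 2 were lowest in both genotypes, the opposite of *mt-Co1* (log2 fold change 0.05, SE 0.30). The alpha subunit *Atp5a1* gave 0.07 (SE 0.19, 95% interval -0.38 to 0.53). The membrane-part subunits *Atp5k* and *Atp5j2* gave 0.43 (SE 0.32) and 0.30 (SE 0.18), and *Atp5k* had 713, 401 and 531 normalised reads in WT against 980, 729 and 522 in CharmeKO, with overlapping groups.

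In complex IV, 11 of the 17 tested nuclear members had values above 0 and 6 below. *Cox8a*, the ubiquitous form of subunit 8, had 5105, 4552 and 4924 normalised reads in WT and 5814, 7456 and 5422 in CharmeKO. Every CharmeKO library exceeded every WT library, CharmeKO 2 by the most, but the test was not passed (log2 fold change 0.35, SE 0.18, limma adjusted p = 0.9999). *Ndufa4*, a subunit of complex IV despite its name, had 2566, 1909 and 2116 in WT and 2721, 3118 and 2561 in CharmeKO, with CharmeKO 3 just below WT 1 (0.36, SE 0.18). The ubiquitous forms *Cox4i1* (0.23, SE 0.17), *Cox6a1* (0.23, SE 0.22), *Cox6b1* (0.29, SE 0.35) and *Cox7a2* (0.17, SE 0.27) also had values above 0, and the last 2 turned below 0 when 1 library was left out. *Cox7a2l*, a relative of *Cox7a2* that takes part in supercomplex assembly, gave -0.10 (SE 0.24, chosen after its values were seen).

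Of the tissue-specific or hypoxia-associated partners, *Cox7a1*, *Ndufa4l2*, *Cox4i2* and *Cox6a2* had values below 0, and *Cox6b2* had no settled direction. *Cox7a1*, the heart and skeletal muscle form of subunit 7a, was nearly unread, its reads numbering 14, 7 and 10 in WT against 9, 2 and 2 in CharmeKO. It passed the filter of 10 reads in 2 libraries through WT 1 and WT 3 alone, so the filter favoured a lower value in CharmeKO. CharmeKO 1 fell between WT 2 and WT 3 in normalised reads, and the log2 fold change was -1.42 with an SE of 0.72 and a 95% interval from -3.14 to 0.30. Set against *Cox7a2* of the same library, *Cox7a1* gave 0.804, 0.722 and 0.812 reads per 100 in WT and 0.446, 0.131 and 0.150 in CharmeKO. This ratio was lower in every CharmeKO library than in any WT library, on 44 reads of *Cox7a1* in all, with no test applied to it. Summed smooth muscle and pericyte markers (9 of 9 below 0, none called by limma) stood at 3284, 781 and 5686 CPM in WT and 3082, 286 and 748 CPM in CharmeKO, and their part in the *Cox7a1* values was not tested. Of these markers, *Myh11* was called by DESeq2 with the replicate block (log2 fold change -1.93, adjusted p = 0.000603). The cardiomyocyte marker sum was 13.9, 8.45 and 3.22 CPM in WT and 18.5, 6.45 and 3.89 CPM in CharmeKO. Fewer cells of a type and less RNA per cell cannot be told apart in bulk libraries.

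*Ndufa4l2*, known as a hypoxia-induced relative of *Ndufa4*, varied widely between libraries. It had 994, 1726 and 588 normalised reads in WT and 1408, 1073 and 79.1 in CharmeKO, with only CharmeKO 3 outside the WT range. The log2 fold change of -1.02 (SE 1.10) was -0.38 by edgeR and by DESeq2, and became 0.29 without CharmeKO 3. *Cox4i2*, a lung and hypoxia form of subunit 4, had 44.3, 135 and 62.6 in WT and 45.2, 91.4 and 22.6 in CharmeKO (-0.65, SE 0.66). *Cox6a2*, the muscle form of subunit 6a, ranged from 9.85 to 56.6 normalised reads (-0.39, SE 0.84) and *Cox6b2*, the testis form of subunit 6b, from 28.7 to 365 (-0.21, SE 1.04). These 3 genes were highest in the library numbered 2 in each genotype. *Cox6b2* averaged 103 ± 56.2 normalised reads in WT and 145 ± 190 in CharmeKO (SD, n = 3), and its log2 fold change was 0.51 by edgeR and 0.50 by DESeq2, above 0 where limma's was below. *Cox6a2* reached 0.15 when 1 library was left out.

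**Figure D5:**
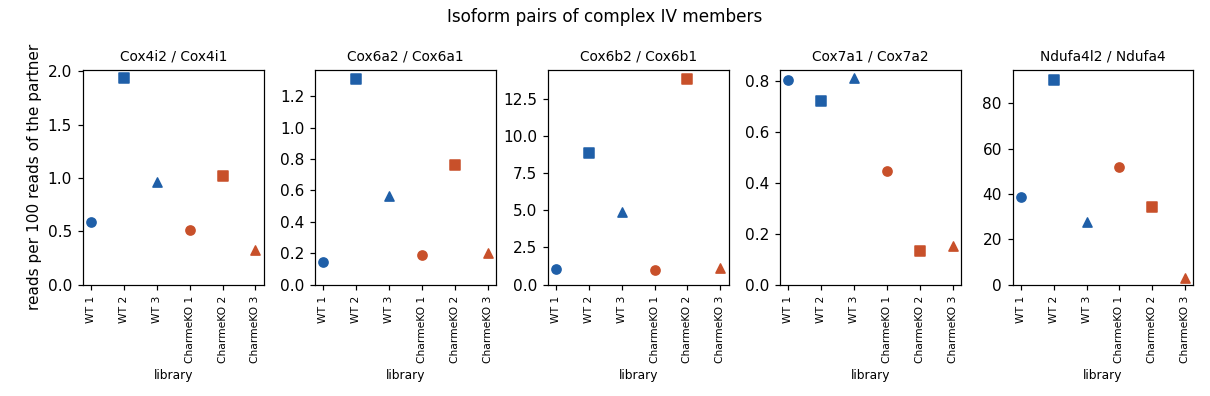
Reads of the tissue-specific or hypoxia-associated form per 100 reads of its partner in each library, for 5 isoform pairs of complex IV (blue WT, orange CharmeKO; each panel has its own vertical axis starting at 0). *Cox7a1* lies between 0.722 and 0.812 in WT and between 0.131 and 0.446 in CharmeKO, on 44 reads of *Cox7a1* in all. It passed the read filter only through WT libraries, which favours that direction. *Ndufa4l2* falls to 3.09 in CharmeKO 3, against 27.8 to 90.4 in the other 5 libraries.

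Of the complex I assembly factors, *Ndufaf1* had 374, 404 and 386 normalised reads in WT and 461, 470 and 468 in CharmeKO. Its groups did not overlap and lay close together within each genotype (log2 fold change 0.27, SE 0.19, range 0.24 to 0.30 when 1 library was left out), without passing the test. *Ndufaf2* had 329, 271 and 292 in WT and 293, 226 and 195 in CharmeKO, lower in each pair with overlapping groups (-0.34, SE 0.26). *Ndufaf7* gave 0.19 (SE 0.20).

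The promoters of the nuclear members were searched for sequence motifs, which the choice by symbol did not use. RefSeq promoter windows (GRCm38.p6, 250 bases before to 50 after the start) were found for 74 of the 92 nuclear members. The NRF1 motif (GCGCA, any base, then GCGC, searched on both strands, like all motifs) occurred in 25.7% of these genes and in 5.19% of all 27025 genes. Most member genes thus held no match. The ETS motif CCGGAAG, bound by factors such as GABP, occurred in 25.7% against 9.93%, and the YY1 motif AAGATGG in 16.2% against 7.28%. The SP1 motif GGGCGG (45.9% against 38.2%) and the hypoxia motif NACGTG (23.0% against 21.7%) were nearer to the background, and TATAAA was found in 8.11% against 15.7%. A match describes the letters and is not a binding site. The 250 bases before the start are shown for *Cox6a1* (chr5:115348959-115349208, minus strand) and *Sdhd* (chr9:50603850-50604099, minus strand), which carry 2 and 1 NRF1 matches, and for *Cox7a1* (chr7:30183921-30184170, plus strand), which carries none, with NRF1 matches in capitals.
Cox6a1: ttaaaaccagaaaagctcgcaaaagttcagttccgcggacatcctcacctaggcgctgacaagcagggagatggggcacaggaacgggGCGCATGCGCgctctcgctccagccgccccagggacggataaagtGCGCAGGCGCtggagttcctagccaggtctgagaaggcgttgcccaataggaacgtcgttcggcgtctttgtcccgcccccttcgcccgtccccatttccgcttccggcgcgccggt
Sdhd: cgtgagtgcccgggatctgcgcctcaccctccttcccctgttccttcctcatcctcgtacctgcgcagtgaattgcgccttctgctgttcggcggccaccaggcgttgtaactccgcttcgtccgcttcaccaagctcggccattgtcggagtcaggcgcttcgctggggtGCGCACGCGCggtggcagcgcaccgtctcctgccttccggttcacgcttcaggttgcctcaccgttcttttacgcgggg
Cox7a1: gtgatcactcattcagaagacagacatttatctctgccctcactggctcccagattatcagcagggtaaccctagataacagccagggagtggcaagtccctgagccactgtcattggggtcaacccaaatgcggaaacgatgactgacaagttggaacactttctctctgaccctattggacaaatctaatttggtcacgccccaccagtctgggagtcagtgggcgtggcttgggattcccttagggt

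*Nrf1*, which encodes the factor of that name, had 858, 951 and 928 normalised reads in WT and 997, 978 and 1125 in CharmeKO. Its groups did not overlap, with CharmeKO higher (2.14% of all genes), and the test was not passed (log2 fold change 0.18, SE 0.16). Any link between *Nrf1* and the genes with motif matches was not tested. The coactivator *Ppargc1a* was scarcely read outside the libraries 2, with 6.89, 60.9 and 12.1 normalised reads in WT and 1.92, 72.8 and 8.70 in CharmeKO (-0.54, SE 1.35, and 0.06 by DESeq2). Of 15 biogenesis regulators tested, 6 had values above 0 and the median was -0.04.

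Lists of genes that serve the chain were described in the same way, and limma called none of their genes. Of 77 mitochondrial ribosome genes, 71 had values above 0 with a median of 0.15, 44 were higher in all 3 pairs (16.4% of all genes) and 8 did not overlap, with CharmeKO higher (2.14% of all genes). *Mrps24* had 1139, 1048 and 986 normalised reads in WT and 1358, 1323 and 1472 in CharmeKO (0.39, SE 0.15). Of 40 assembly factors outside the Ndufaf family, 31 had values above 0 with a median of 0.10. The complex III assembly factors *Lyrm7* and *Uqcc3* were higher in every CharmeKO library than in any WT library (0.58, SE 0.26, and 0.48, SE 0.22), and neither passed the test.

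For the upkeep and expression of the mitochondrial genome, 9 of 14 replication genes, 19 of 25 transcription and RNA processing genes and 13 of 16 translation factors had values above 0, with medians of 0.07, 0.04 and 0.12. *Tfam*, which packages the mitochondrial genome and helps start its transcription, gave 0.08 (SE 0.18), and the mitochondrial RNA polymerase *Polrmt* 0.13 (SE 0.19). *Lrpprc* and *Slirp*, which stabilise mitochondrial mRNAs, gave -0.06 (SE 0.16) and -0.04 (SE 0.38). *Grsf1*, an RNA-binding protein of mitochondrial RNA granules, had 2544, 2656 and 2533 normalised reads in WT and 2327, 2354 and 2215 in CharmeKO. It was lower in every CharmeKO library than in any WT library (-0.17, SE 0.13; 1.98% of all genes), without passing the test. Of the electron carriers, *Cycs* (cytochrome c) gave 0.06 (SE 0.43) and *Cyc1* (cytochrome c1) 0.17 (SE 0.23), and in the citric acid cycle 12 of 17 genes had values above 0 with a median of 0.09.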

How the data were processed

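Poly(A) RNA-seq was performed on 3 WT and 3 CharmeKO cultures of CFs, grouped and numbered by their titles. According to the methods and labels, the authors aligned reads with STAR to a mouse assembly (GRCm39 in the labels, which also list GRCh38), counted the reverse strand on an Ensembl annotation and normalised with DESeq2. The read length is not given in the sources used here. The deposited values are a signal, gene reads divided by a size factor per library. Dividing by each library's smallest positive value gave whole reads for 100% of 116676 values (tolerance 1e-06).

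The 15948 genes that reached 10 reads in 2 or more libraries were tested as log2(value + 1) with limma 3.58.1 (mean-variance trend, genotype only, two-sided, Benjamini-Hochberg over all genes, threshold 0.05). The pseudocount of 1 understates the change of low genes. Alternatives were edgeR 4.0.16 and DESeq2 1.42.0 on the recovered reads, the replicate number as a block, pseudocounts of 0.5 and 8, no filter, other scalings and leaving out each library. The tests were also run on simulated counts of fixed dispersion with planted changes, which does not measure their power in these data. CPM are recovered reads scaled to each library's total, and lengths, coordinates and sequences come from GENCODE M21 on GRCm38 (all 104 members matched by identifier), which may not be the authors' build. Levels per kb divide by all annotated exon bases. Windows were compared with all annotated transcripts, using the longest transcript of each member.

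Same-numbered WT and CharmeKO libraries deviated together for numbers 1 and 2 (correlations over genes of 0.762 and 0.514, for deviations from each genotype's mean). Number 3, at 0.217, did not stand apart from the other pairs, which ranged from -0.643 to 0.222. The numbers were still taken to pair the libraries, from the data alone, with pair 3 the least certain. Named genes were all mitochondrial-genome members, the Sdh genes, the isoform pairs, and per complex the 2 lowest p and the 2 highest means; of the other lists, up to 2 with the lowest p and 8 preset genes. The values of 1 named gene are not reported here. The members and lists were chosen with earlier results of these data known.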

Additional observations from a re-analysis of the deposited data

How the results depend on the processing

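No named gene changed its call under any of the 17 alternatives, and no member was called by edgeR or DESeq2, with or without the replicate block. Over all genes, DESeq2 on the recovered reads called 8 (0.0502%), and DESeq2 with the replicate block called 64 (0.401%), against 0 by limma, and the cause was not tested. Limma with the replicate block gave 0 calls and 857 genes below an unadjusted p of 0.05 (5.37%), 3 of them members (*Ndufa9*, *Cox7b* and *Atp5j2*, limma adjusted p = 0.7997 each), and the mean pair difference of the genome ratio was -0.06. Among the marker lists, the block changed the DESeq2 call of *Myh11* (adjusted p = 0.000603), and no call of a member or of another listed gene.

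Other tools, pseudocounts, filters and scalings kept the median of the mitochondrial-genome members between 0.10 and 0.15 and that of the nuclear members between 0.18 and 0.22. Leaving out 1 library moved the first from -0.11 to 0.31 and the second from 0.07 to 0.30, and the count of genes at an unadjusted p under 0.05 from 68 to 468. Of the 64 named genes fitted, 25 changed sign in at least 1 setting, 21 of them only when a library was left out. Without the block, the 95% intervals of the well-measured mitochondrial-genome members other than *mt-Nd6* reach beyond 0.7 log2 units in both directions.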
